A study of Mus musculus with 2 samples.

Results

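The genes examined were 10 that mark the naive state of mouse embryonic stem (ES) cells, namely *Klf2*, *Klf4*, *Klf5*, *Esrrb*, *Tfcp2l1*, *Nr0b1*, *Prdm14*, *Tcl1*, *Tbx3* and *Nr5a2*. They were chosen by gene symbol from 21935 symbols in the files. The symbol matched directly for 9 of them, and *Tfcp2l1* was found through its RefSeq accession, since the files list it under the older symbol *Tcfcp2l1*. *Tcl1* encodes no transcription factor but a small cytoplasmic protein that activates AKT kinases, and it is kept here with the others. The cells were R1 ES cells, a mouse ES cell line, transduced with a lentiviral short hairpin RNA and selected with puromycin. In shKdm5b ES cells the hairpin is directed against *Kdm5b*, which encodes an H3K4 demethylase, and in shLuc ES cells, the control, against luciferase. Both were maintained on irradiated mouse embryonic fibroblasts with LIF and then cultured for 72 h without it, in low-attachment dishes by the sample protocol. Whether each line is a pool of transduced cells or a clone is not given in the sources used here. Polyadenylated RNA of each kind of cell was sequenced as 1 library, so the spread between cultures is unknown, and library and condition cannot be told apart.

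In the naive state, a circuit of transcription factors keeps ES cells free to form any embryonic lineage. LIF acts through the kinase JAK and the factor STAT3 to sustain *Klf4*, *Klf5* and *Tfcp2l1*. Inhibition of the kinase GSK3 relieves repression of *Esrrb*, *Klf2* and *Tfcp2l1* by TCF7L1, and AKT signalling is linked to *Tbx3*. When LIF is withdrawn, these genes are normally switched off over the following days as cells pass to the formative and primed epiblast states. A comparison of the libraries at 72 h asks how their levels differ between cells with and without *Kdm5b* knockdown, but not how far either culture had lowered them, because undifferentiated cells were not analysed here.

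The promoters of the members on either side of the comparison below are shown first, because *Esrrb* and *Nr0b1* were the members past 1.5-fold in the deposited values and *Klf2* and *Klf4* were those past it once transcript GC content was allowed for. Each run is the 250 bases before the start of transcription from RefSeq (GRCm38.p6), 5′ to 3′ on the gene's strand, and *Esrrb* has 2 start sites in that table. Capitals mark matches, on either strand and with overlaps counted, to CCNCNCCC, the site of KLF factors, or to the TATA box, searched as TATAAA.
Klf2, chr8:72318812-72319061, plus strand: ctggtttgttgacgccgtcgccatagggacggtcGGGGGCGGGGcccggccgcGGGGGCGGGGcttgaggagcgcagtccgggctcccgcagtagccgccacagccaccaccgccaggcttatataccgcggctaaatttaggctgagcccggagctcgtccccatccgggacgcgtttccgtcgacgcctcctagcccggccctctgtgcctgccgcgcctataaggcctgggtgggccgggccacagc
Klf4, chr4:55532476-55532725, minus strand: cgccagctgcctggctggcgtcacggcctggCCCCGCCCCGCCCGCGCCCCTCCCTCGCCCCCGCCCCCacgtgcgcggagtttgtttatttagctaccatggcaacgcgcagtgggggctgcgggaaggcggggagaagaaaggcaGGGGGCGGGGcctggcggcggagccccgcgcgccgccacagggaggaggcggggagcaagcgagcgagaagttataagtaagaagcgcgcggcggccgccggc
Esrrb, first start site, chr12:86360867-86361116, plus strand: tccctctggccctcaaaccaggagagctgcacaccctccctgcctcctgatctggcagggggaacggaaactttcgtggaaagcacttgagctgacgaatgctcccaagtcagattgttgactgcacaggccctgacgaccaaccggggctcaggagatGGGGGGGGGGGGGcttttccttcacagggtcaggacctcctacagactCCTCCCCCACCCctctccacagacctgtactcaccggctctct
Esrrb, second start site, chr12:86421394-86421643, plus strand: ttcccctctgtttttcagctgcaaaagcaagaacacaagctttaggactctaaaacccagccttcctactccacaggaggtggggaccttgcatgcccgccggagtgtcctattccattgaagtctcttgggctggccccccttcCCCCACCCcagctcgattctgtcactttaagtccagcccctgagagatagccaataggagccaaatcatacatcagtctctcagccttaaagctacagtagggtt
Nr0b1, chrX:86191525-86191774, plus strand: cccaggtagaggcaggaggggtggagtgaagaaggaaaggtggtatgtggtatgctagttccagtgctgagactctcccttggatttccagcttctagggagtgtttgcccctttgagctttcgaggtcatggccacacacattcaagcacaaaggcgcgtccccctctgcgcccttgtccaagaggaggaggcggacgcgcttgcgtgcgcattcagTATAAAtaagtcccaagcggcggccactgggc

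The *Klf4* window held 9 KLF matches and the *Klf2* window 4, each overlapping another match. The first *Esrrb* window held 8, of which 6 overlap in a run of G and the rest overlap each other. The second *Esrrb* window held 1. The *Nr0b1* window held 0 KLF matches and 1 TATA box, 32 bases before the start. Of 32851 promoter windows of the same length, 45.9% held a KLF match and 12.4% a TATA box. The letters TTCCNGGAA (a STAT site, in 0.913% of windows), AAGGTCA (a half-site of ESRRB and NR5A2, in 4.08%), ATGCAAAT (an octamer, in 1.60%) and AGGTGT (a TBX half-site, in 11.8%) were also searched, and none of the 5 windows printed here held any of them. A promoter was at hand for 7 members. Among windows not printed, *Tfcp2l1* held a TATA box 28 bases before the start and 1 *Nr5a2* window held one at 181 bases. *Tcl1* held a TBX half-site at 22 bases. *Tfcp2l1* and *Tcl1* held 2 KLF matches each, and the other *Nr5a2* window held 4. The window GC content was 74.0% for *Klf4*, 71.2% for *Klf2*, 60.8% and 52.0% for *Esrrb* and 57.2% for *Nr0b1*.

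For each RefSeq transcript, the authors deposited the number of reads and the RPKM, that is, reads scaled to transcript length and to the size of the library. The libraries held 78172698 (shLuc) and 72702698 (shKdm5b) aligned reads of 50 bases. Distinct read positions made up 32.9% of the shLuc reads but 20.1% of the shKdm5b reads, and since reads at 1 position may be copies of the same molecule, the 95% intervals below cover counting error only. The part of this difference in the ratios below was not tested. *Kdm5b* itself was at 104 RPKM in shLuc ES cells and 3.01 RPKM in shKdm5b ES cells, 2.88% of the control level. The log2 ratio (shKdm5b over shLuc) was computed with 0.1 RPKM added to each level, which understates differences of low genes, and its interval comes from the reads by the exact Clopper-Pearson method. A gene was called different when its ratio exceeded 1.5-fold (0.58 on the log2 scale) with an RPKM above 1 in at least 1 library, a level that 11804 genes reached. Among those genes 32.0% were called lower and 16.3% higher in the shKdm5b library (48.3% in either direction), and the median log2 ratio was -0.21.

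All 10 members were expressed in both libraries, with 543 to 26405 reads each and no level below 2.88 RPKM. By RPKM as deposited, 2 of 10 were called lower, *Esrrb* and *Nr0b1*, and 0 were called higher, against 32.0% and 16.3% of all genes. The other 8 lay within 1.5-fold. The median log2 ratio of the members was -0.15, beside -0.21 for all genes, and its sign turned with the scaling (0.017 after scaling to equal medians, 0.043 after the GC correction described below). The RPKM values of the members added up to 304 in shLuc and 248 in shKdm5b ES cells. Counting intervals excluded 0 for all 10 members, as reads are many, and this says nothing of the difference between one culture and the next.

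**Figure D1:**
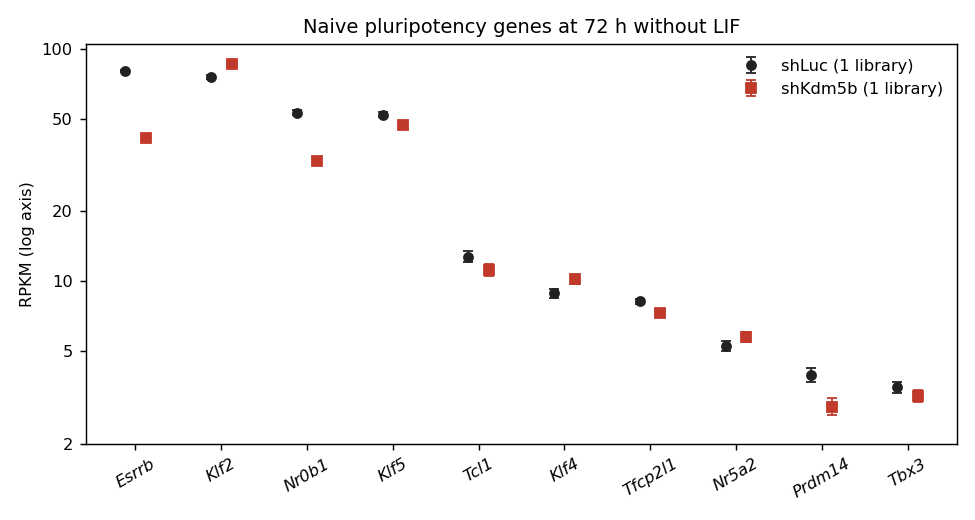
RPKM (log axis) of the 10 members in the shLuc library (black circles) and the shKdm5b library (red squares), ordered by the shLuc level, with 95% Poisson counting intervals as bars. *Esrrb* (80.5 and 41.2 RPKM) and *Nr0b1* (53.1 and 33.0 RPKM) differ most between the libraries, followed by *Prdm14* (3.96 and 2.88 RPKM). All members but *Esrrb* and *Nr0b1* lie within 1.5-fold.

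Among the nuclear receptors, *Esrrb* showed the largest difference of any member in the deposited values. It encodes an orphan receptor that occupies many genes of the naive circuit together with OCT4 and SOX2. *Esrrb*, on chromosome 12 from 86361117 to 86521628 (GENCODE M21, GRCm38), was at 80.5 RPKM in shLuc ES cells (26405 reads) and at 41.2 RPKM in shKdm5b ES cells (12572 reads). The shKdm5b level was thus 51.2% of the control (counting interval 50.1% to 52.3%), a log2 ratio of -0.96. After the GC correction described below the ratio was -0.31, within 1.5-fold, and *Klf2* (1.10) showed the largest difference. Of the 11804 genes, 2068 had a lower log2 ratio than *Esrrb*. The other deposited *Esrrb* transcript shares nearly all of its reads with this one and gave 78.4 and 40.2 RPKM. *Esrrb*, the highest of the members in the shLuc library, was the third in the shKdm5b library, behind *Klf2* and *Klf5*.

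*Nr0b1* encodes DAX1, an atypical receptor without the usual DNA-binding domain that acts as a corepressor and binds OCT4 and ESRRB. On chromosome X from 86191764 to 86195947, it was at 53.1 RPKM in shLuc ES cells (7450 reads) and at 33.0 RPKM in shKdm5b ES cells (4308 reads). This was 62.2% of the control level, and its log2 ratio of -0.68 (-0.74 to -0.63) lay past the threshold by the whole of its counting interval. That holds for the deposited values only. The ratio was -0.51 after scaling to equal medians and -0.09 after GC correction, both within 1.5-fold. *Nr5a2* (LRH1), on chromosome 1 from 136842571 to 136960448, encodes a receptor that binds regulatory sequences of *Pou5f1*. It was at 5.26 RPKM in shLuc ES cells (1494 reads) and at 5.76 RPKM in shKdm5b ES cells (1522 reads), a log2 ratio of 0.13 (0.03 to 0.24). The 3 receptors did not share a direction, with *Esrrb* and *Nr0b1* below and *Nr5a2* above 0 in all 8 ways of computing the ratio.

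The KLF factors bind GC-rich sequences through a common zinc-finger domain and can stand in for one another in ES cells. *Klf2*, on chromosome 8 from 72319033 to 72321656, was at 76.0 RPKM in shLuc ES cells (10788 reads) and at 86.5 RPKM in shKdm5b ES cells (11425 reads), a log2 ratio of 0.19 (0.15 to 0.23). *Klf4*, a direct target of STAT3 on chromosome 4 from 55527143 to 55532466, had 8.87 RPKM (2111 reads) and 10.2 RPKM (2253 reads), a log2 ratio of 0.20 (0.11 to 0.28). *Klf5*, on chromosome 14 from 99298691 to 99315036, had 52.1 RPKM (7028 reads) and 47.1 RPKM (5912 reads), a log2 ratio of -0.14 (-0.19 to -0.09). All 3 lay within 1.5-fold, with *Klf2* and *Klf4* slightly above and *Klf5* slightly below the control (0.02 after scaling to equal medians). *Klf2* was 8.57-fold above *Klf4* in shLuc and 8.50-fold in shKdm5b ES cells, a ratio that the size of the library does not enter (the ratio of ratios was 0.99, interval 0.93 to 1.06). Relative to *Klf5*, *Klf2* went from 1.46-fold to 1.84-fold. Both ratios come from the deposited values and are not free of the relation to transcript GC content described below. After GC correction the log2 ratios were 1.10 for *Klf2*, 0.75 for *Klf4* and -0.10 for *Klf5*.

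Of the remaining factors, *Tfcp2l1*, a CP2-family factor that carries the LIF signal to the circuit (chromosome 1 from 118627945 to 118685168), was at 8.18 RPKM in shLuc ES cells (5930 reads) and at 7.33 RPKM in shKdm5b ES cells (4937 reads). Its log2 ratio was -0.16 (-0.21 to -0.11). *Tbx3*, a T-box factor that maintains *Nanog* (chromosome 5 from 119670669 to 119684724), had 3.49 RPKM (1369 reads) and 3.20 RPKM (1170 reads), a log2 ratio of -0.12 (-0.24 to -0.01). Both were close to the control level, and after scaling to equal medians their ratios were 0.01 and 0.05. *Prdm14* (chromosome 1 from 13113457 to 13127163), which represses DNA methyltransferase genes and FGF receptor signalling, had the fewest reads, with 3.96 RPKM (802 reads) and 2.88 RPKM (543 reads). Its log2 ratio of -0.44 missed the threshold, but the counting interval of -0.62 to -0.30 reached past it. *Tcl1*, the AKT coactivator (chromosome 12 from 105216750 to 105222793), was at 12.7 RPKM in shLuc ES cells (1386 reads) and at 11.1 RPKM in shKdm5b ES cells (1126 reads), a log2 ratio of -0.19 (-0.31 to -0.08) that was 0.18 after GC correction. The second transcripts of *Tbx3* and *Nr5a2* gave log2 ratios of -0.13 and 0.13.

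The order of the levels changed among the highest members. In the shLuc library it ran *Esrrb*, *Klf2*, *Nr0b1*, *Klf5*, *Tcl1*, *Klf4*, *Tfcp2l1*, *Nr5a2*, *Prdm14* and *Tbx3*, in which the counting intervals of only *Nr0b1* and *Klf5* overlapped among neighbours. In the shKdm5b library *Klf2* and *Klf5* came first, then *Esrrb* and *Nr0b1*. From *Tcl1* to *Nr5a2* the order stayed as in the control, and *Tbx3* and *Prdm14* changed places. Here the intervals of *Tcl1* and *Klf4*, and of *Tbx3* and *Prdm14*, overlapped. *Esrrb* was at 1.06 times the *Klf2* level in shLuc ES cells and at 0.476 times in shKdm5b ES cells, so that the ratio between these genes was 0.450 of the control (0.435 to 0.465). The same comparison of *Nr0b1* with *Klf2* gave 0.546 (0.522 to 0.572). These comparisons use the deposited values, without correction for transcript GC content. *Esrrb* made up 26.5% of the members' added RPKM in shLuc and 16.6% in shKdm5b ES cells, where *Klf2* alone made up 34.8%. Among the 11804 genes, 629 stood above *Esrrb* in shLuc ES cells and 1555 in shKdm5b ES cells, whereas 683 and 670 stood above *Klf2*.

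**Figure D2:**
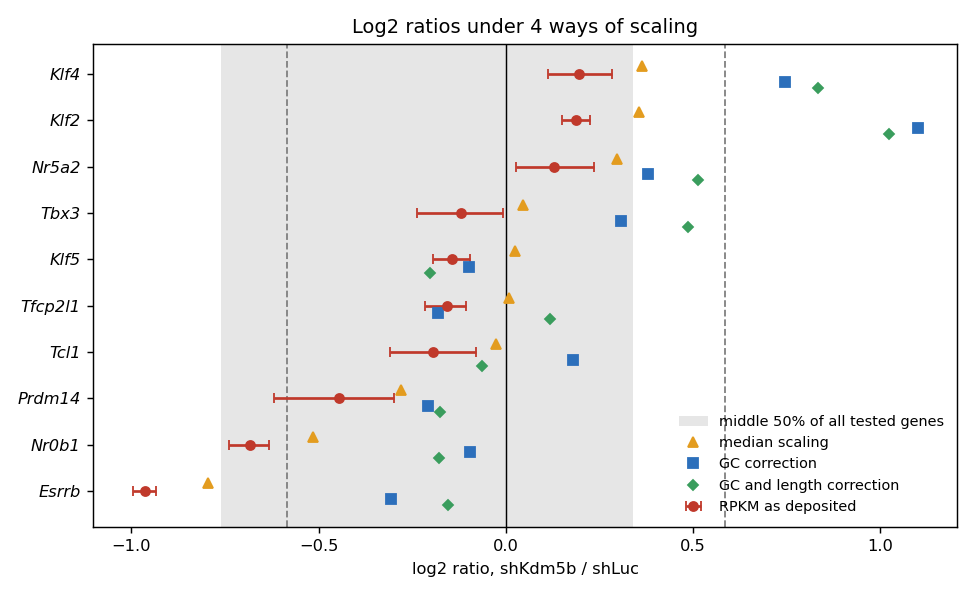
Log2 ratio of shKdm5b to shLuc for the 10 members from RPKM as deposited (red, with 95% counting intervals), after scaling to equal medians (orange), after GC correction (blue) and after GC and length correction (green). Dashed lines mark 1.5-fold, and the grey band spans the middle 50% of the 11804 genes. The 2 lowest members as deposited, *Esrrb* and *Nr0b1*, move inside the lines after GC correction, and *Klf2* (1.10) and *Klf4* (0.75) move outside them.

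The calls depended on transcript GC content. Across 11535 genes with a matched transcript, the log2 ratio fell with GC content (Spearman correlation -0.53 across genes, which share the same pair of libraries and are not independent replicates). *Klf2* has a transcript GC content of 61.6%, higher than 97.4% of these genes, and genes of that content had a typical log2 ratio of -0.91 by the lowess curve. *Esrrb*, at 56.3% GC, had a typical value of -0.66, and *Nr0b1*, at 55.2%, of -0.59. *Klf4*, at 54.6%, lies next to *Nr0b1* in GC content, yet the log2 ratios of the pair were 0.20 and -0.68. When the curve was taken out, the log2 ratios were 1.10 for *Klf2*, 0.75 for *Klf4*, -0.31 for *Esrrb* and -0.09 for *Nr0b1*. The corrected count was thus 2 of 10 higher and 0 of 10 lower, beside 18.6% higher and 18.1% lower (36.7% in either direction) of all genes corrected in the same way. *Klf2* then stood above 94.3% of the corrected genes and *Klf4* above 86.7%. The corrected log2 ratios of the other members ran from -0.21 (*Prdm14*) to 0.38 (*Nr5a2*). Correction for both GC content and transcript length left the same calls, with 1.02 for *Klf2*, 0.84 for *Klf4*, -0.15 for *Esrrb* and -0.18 for *Nr0b1*. Whether the relation to GC content arose in library preparation or in the cells was not tested.

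**Figure D3:**
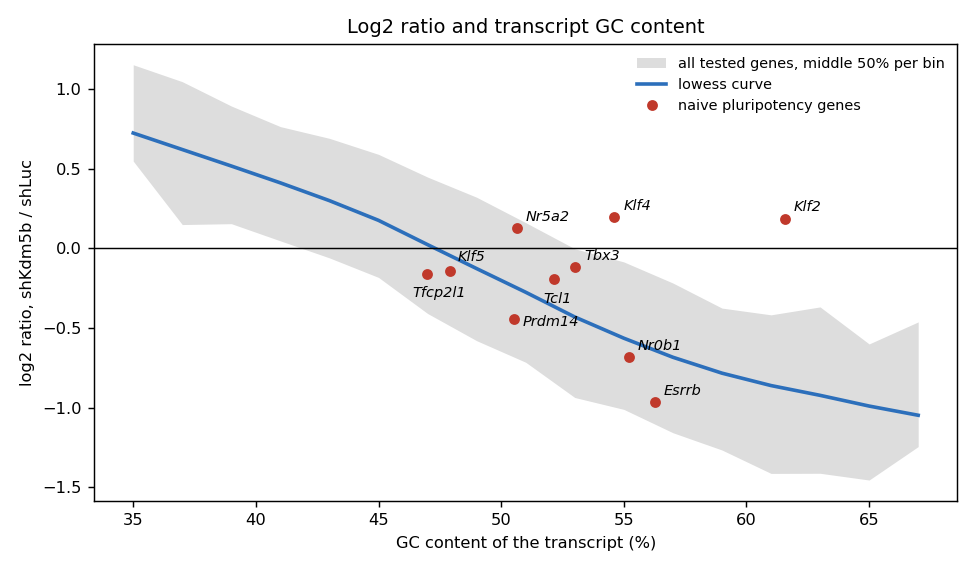
Log2 ratio of shKdm5b to shLuc against the GC content of the transcript (%). The grey band spans the middle 50% of all genes above 1 RPKM in at least 1 library, in bins of 2 percentage points, the blue line is the lowess curve and red points are the 10 members. *Klf2* and *Klf4* lie above the band, while *Esrrb* and *Nr0b1* lie inside it and below the curve.

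Within the same network, the core pluripotency factors showed 1 gene called lower and 3 within 1.5-fold. *Pou5f1* (OCT4) had 619 RPKM in shLuc ES cells and 182 RPKM in shKdm5b ES cells, a log2 ratio of -1.76 that was -1.03 after GC correction, while *Sox2*, *Nanog* and *Sall4* gave 0.20, -0.09 and 0.22. Processed pseudogenes of *Pou5f1* exist, and how reads shared with them were counted is not stated. Of 27 further genes of the naive ES cell state, 25 passed the RPKM threshold, 3 were called higher and 4 lower (7 and 3 after GC correction), and their median was -0.18 (0.12 after it). With 7 genes past the thresholds, the largest rises were *Dppa3* (2.38 and 6.12 RPKM, log2 ratio 1.33), *Dppa5a* (0.59) and *Sox15* (0.59), and the largest falls *Mybl2* (-1.31), *Tdh* (-1.21) and *Tet1* (-1.03). *Dppa3* encodes Stella, a protein that protects DNA methylation in the early embryo. *Zfp42* (REX1), a standard marker of the naive state, had 108 and 92.5 RPKM and a log2 ratio of -0.22.

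In the deposited values the genes of the LIF-STAT3 list were lower for the most part. The list holds receptor, kinase and STAT3 genes upstream of *Klf4*, *Klf5* and *Tfcp2l1*, but also genes downstream of STAT3, such as *Socs3*. Of the upstream genes, *Lifr*, *Tyk2* and *Stat3* were called lower, *Jak1* and *Jak2* higher, and *Il6st* (-0.57) was within 1.5-fold. Of 10 genes past the RPKM threshold, 6 were called lower and 2 higher, against 32.0% and 16.3% of all genes. Their median log2 ratio was -0.95 beside -0.21 for all genes. *Lifr*, which encodes the LIF receptor, had 10.7 and 4.87 RPKM (log2 ratio -1.11), and *Stat3* had 11.3 and 6.52 RPKM (-0.79). *Socs3*, a feedback gene induced by STAT3, had 3.79 and 1.70 RPKM (-1.11). *Junb* (-1.84), *Pim3* (-1.40) and *Tyk2* (-1.38) showed the largest falls, and the kinase genes *Jak1* (0.78) and *Jak2* (0.75) were higher. After GC correction 3 of these genes were called lower (*Lifr*, *Junb* and *Tyk2*) and 1 higher (*Jak1*), with a median of -0.44. The shares of all genes were then 18.1% lower and 18.6% higher. *Stat3* (-0.39), *Socs3* (-0.35) and *Pim3* (-0.48) were within 1.5-fold after the correction. *Klf4*, *Klf5* and *Tfcp2l1* themselves lay within 1.5-fold in the deposited values. After GC correction *Klf4* (0.75) was called higher, and *Klf5* (-0.10) and *Tfcp2l1* (-0.18) were still within 1.5-fold.

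*Tcf7l1*, which encodes the repressor of *Esrrb*, *Klf2* and *Tfcp2l1*, had 45.6 and 32.8 RPKM, a log2 ratio of -0.47 that turned to 0.35 after GC correction. Of the 10 Wnt-GSK3 genes, 1 was called higher (*Tcf7*, 0.68) and 2 lower (*Axin1*, -1.10; *Lef1*, -0.76), with a median of 0.06. After GC correction 1 was higher and 0 were lower, with *Axin1* at -0.50, *Lef1* at -0.44 and a median of 0.29. *Akt1* (12.7 and 5.50 RPKM, log2 ratio -1.19) and *Akt2* (12.2 and 5.95 RPKM, -1.02), which encode kinases that TCL1 binds, were called lower. With *Mtor* (-1.11), 3 of 10 genes of the PI3K-AKT list were lower and 0 higher (3 and 1 after GC correction). After GC correction *Akt1* (-0.35) and *Akt2* (-0.45) lay within 1.5-fold. Of 13 genes of the MEK-ERK pathway, whose activity favours exit from the naive state and degradation of KLF2, 2 were higher (*Map2k1*, 0.92, and *Dusp6*, 0.75) and 4 were lower (*Etv4*, -1.65, *Spry4*, -1.43, *Map2k2*, -1.13, and *Mapk3*, -0.74), against 2 and 2 after GC correction. Of 9 partners and cofactors, 2 were lower and 0 higher (1 and 0 after GC correction). *Ncoa3*, the coactivator of ESRRB, gave -0.52, while the lower genes were *Ncoa1*, a coactivator of nuclear receptors (-0.89), and *Cbfa2t2*, which encodes the partner of PRDM14 (-0.67, and -0.58 after GC correction, within 1.5-fold).

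**Figure D4:**
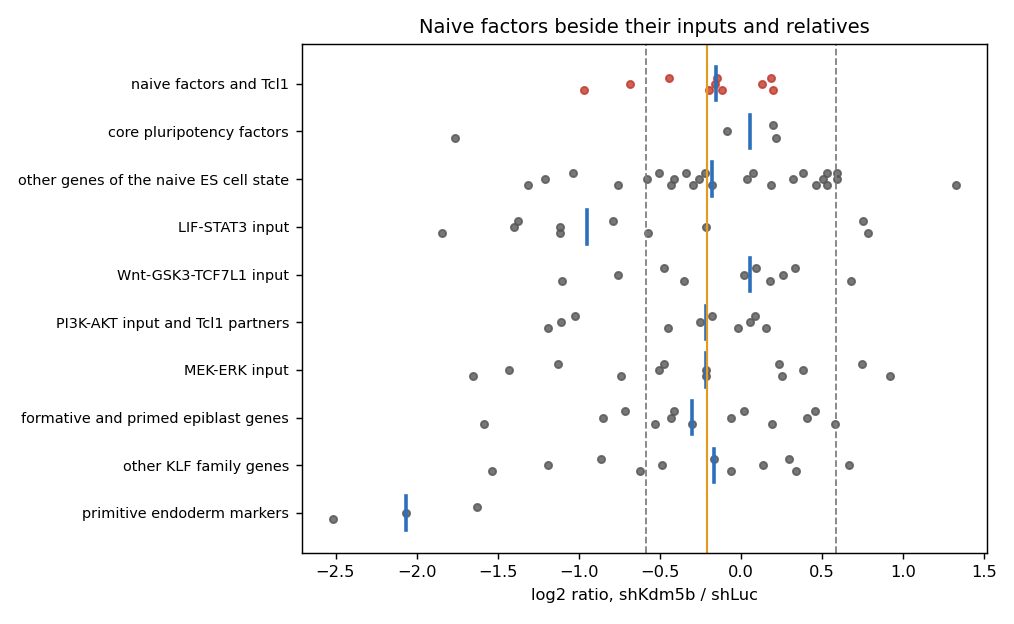
Log2 ratio of shKdm5b to shLuc for the 10 members (red) and for genes of 9 lists above 1 RPKM in at least 1 library (grey), 1 point per gene. Blue bars are list medians, dashed lines mark 1.5-fold and the orange line is the median of all such genes (-0.21). The LIF-STAT3 median (-0.95) and the primitive endoderm median (-2.07) lie far to the left, while the median of the members (-0.15) lies near that of all genes.

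Among relatives of the members, 11 other KLF genes passed the RPKM threshold, of which 4 were called lower and 1 higher (4 and 0 after GC correction). *Klf3* (0.67) was higher, and *Klf16* (-1.54), *Klf13* (-1.19), *Klf11* (-0.86) and *Klf12* (-0.62) were lower. No other KLF gene exceeded the *Klf2* level in either library, the highest being *Klf9* with 71.1 and 50.8 RPKM. *Esrra*, a close relative of *Esrrb*, had 5.32 and 1.75 RPKM (log2 ratio -1.55), and *Esrrg* was at 0.0657 and 0.0471 RPKM. The retinoic acid receptor gene *Rarg* was also lower (65.6 and 27.5 RPKM, log2 ratio -1.25). After GC correction *Esrra* (-0.67) was still past 1.5-fold and *Rarg* (-0.48) was not. *Nr5a1*, the relative of *Nr5a2*, had 3 and 1 reads, and *Nr0b2*, the relative of *Nr0b1*, 3 and 2 reads. *Tcl1* was likewise the only measured gene of its family with more than 1 read in a library. *Tcl1b1*, *Tcl1b2*, *Tcl1b3* and *Tcl1b4* had 0 reads in both libraries and *Tcl1b5* 0 and 1, where 3 reads would correspond to between 0.0369 and 0.0497 RPKM. Of 15 other T-box genes, 2 passed 1 RPKM, *Eomes* (2.45 and 4.05 RPKM, log2 ratio 0.70) and *Mga* (13.6 and 9.42 RPKM, -0.53). After GC correction *Eomes* was at 1.43 and *Mga* at -0.88, both past 1.5-fold. *Tfcp2*, a relative of *Tfcp2l1*, had 5.02 and 3.23 RPKM (-0.62, and -0.47 after GC correction). *Ubp1*, another relative, had 17.8 and 23.5 RPKM (0.40, and 0.66 after GC correction, past 1.5-fold).

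Markers of other cells that the cultures could hold were read beside these values, since in bulk RNA fewer cells of a type and less RNA per cell cannot be told apart. The 7 ES cell markers added up to 1604 RPKM in shLuc and 1107 RPKM in shKdm5b ES cells. Most of that difference lay in *Pou5f1* (619 and 182 RPKM), the only one past 1.5-fold in the deposited values. After GC correction 1 was called lower, *Pou5f1*, and 1 higher, *Utf1* (0.68). Of 9 feeder fibroblast markers, 8 were below 1 RPKM in both libraries. Their summed level was 5.49 RPKM (shLuc) and 6.43 RPKM (shKdm5b), most of it *Thy1* (4.08 and 4.59 RPKM). The 6 primitive endoderm markers added up to 23.4 and 4.43 RPKM, and the 3 past the RPKM threshold were all lower in the shKdm5b library before and after GC correction, *Dab2* (18.5 and 3.15 RPKM, log2 ratio -2.52), *Gata4* (-2.07) and *Gata6* (-1.62). These cells are known to express *Nr5a2* and *Tbx3* among other genes, and the part of these markers in the members' values was not tested. Of 5 trophectoderm markers, *Krt18* (0.66) and *Eomes* were higher and *Krt8* (-1.35) lower, with *Cdx2* and *Elf5* below 0.1 RPKM. Of 5 endothelial markers, the defining gene *Cdh5* was below 0.1 RPKM, and *Pecam1*, which ES cells also express, had 15.4 and 15.6 RPKM.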

How the data were processed

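Polyadenylated RNA of 1 shLuc and 1 shKdm5b library was compared, with groups taken from the sample labels. Per the submitters' processing notes, CASAVA 1.0, Bowtie 0.12.7 and mm8 were used. The counting program, the RefSeq release and any use of strand are not given in the sources used here. The authors deposited whole-number read counts and RPKM values for 27405 RefSeq entries. The total behind the RPKM equals the number of aligned reads in the deposited alignments, within rounding. A further column of small whole numbers, whose meaning is not stated, was not used.

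Where a symbol had several entries, that of the higher mean RPKM stands for it. Without replicates no test was made, although the study's methods name edgeR for differential expression. Differences were described by log2(RPKM + 0.1), a fold change of 1.5 and RPKM above 1, with 95% Clopper-Pearson intervals, and with Poisson intervals for levels. Intervals of ratios between genes used the normal approximation on log reads. GC content came from GENCODE M21 transcripts matched by accession (97.7% of genes past the RPKM threshold), and a lowess curve (fraction 0.3) over those genes was removed from the shKdm5b RPKM. Calls and intervals were tried on simulated Poisson counts. These hold no copied molecules and no spread between cultures, so the trial does not bear on either. The alternatives were pseudocounts of 1 and 0.01, scaling to equal medians or 75th percentiles, both corrections, summed entries, and other fold and RPKM thresholds. Named genes were the 10 members, *Kdm5b*, up to 6 listed genes past the thresholds per list (beyond 6, the 3 largest rises and falls), and regulators, partners or paralogs of a member. *Zfp42*, *Fgf5*, *Otx2*, *Pou3f1*, *T* and the cell type markers within 1.5-fold were named after their values were seen. The members and lists were chosen with earlier results of these data known. Gene positions and promoter sequences are those of GRCm38, not of the alignment. Without strand, reads of *Esrrb*, *Tbx3* and *Tfcp2l1* cannot be told from those of an overlapping long non-coding RNA or pseudogene. Python 3.11.15, pandas 2.3.3, NumPy 2.4.6, SciPy 1.17.1 and statsmodels 0.14.6 were used.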

Additional observations from a re-analysis of the deposited data

How the results depend on the processing

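No paired analysis was possible because shLuc and shKdm5b are represented by 1 library each, nor could a library be left out. The 2 members called lower, *Esrrb* and *Nr0b1*, were called under both other pseudocounts, scaling to equal 75th percentiles, summed entries, RPKM above 11, RPKM above 1 in both libraries and no RPKM threshold (at least 10 reads). After scaling to equal medians 1 was called, *Esrrb*, and with a fold change above 2 the count was 0. After GC correction, and after GC and length correction, the count was again 2, but of *Klf2* and *Klf4*, both higher.

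The median log2 ratio of the members, -0.15, was -0.081 after scaling to equal 75th percentiles and changed sign to 0.017 after scaling to equal medians, 0.043 after GC correction and 0.028 after GC and length correction. Scaling to equal medians raises all genes by 0.17 on the log2 scale. Over the deposited values and the alternatives *Esrrb* ran from -0.97 to -0.15, *Nr0b1* from -0.69 to -0.09, *Prdm14* from -0.46 to -0.18, *Klf2* from 0.19 to 1.10, *Klf4* from 0.18 to 0.84 and *Nr5a2* from 0.11 to 0.51, each with 1 sign in 8 settings. *Klf5*, *Tfcp2l1*, *Tcl1* and *Tbx3* took both signs, between -0.20 and 0.49. *Kdm5b*, at -5.07, was -4.72 with a pseudocount of 1, -4.91 and -5.00 after scaling to equal medians and 75th percentiles, and -4.84 after GC and length correction. Of the list medians under alternatives, 62 of 126 stayed within their counting range. List counts turned in direction under some alternatives, as in the MEK-ERK list, with 4 genes lower and 2 higher as deposited and 2 lower and 4 higher after GC and length correction. Counting reads at 1 position once was not run, since gene coordinates in mm8 were not at hand. The cause of these shifts was not tested.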

Other observations

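Genes of the formative and primed epiblast, which follow the naive genes when ES cells leave self-renewal, were read beside the naive genes. Of 14 listed genes 13 passed the RPKM threshold. In shKdm5b ES cells 0 were called higher and 3 lower, against 16.3% and 32.0% of all genes. The median log2 ratio was -0.30 beside -0.21 for all genes. *Fgf5*, a marker of the primed epiblast, had 22.6 and 31.1 RPKM (log2 ratio 0.46), *Otx2* 149 and 111 RPKM (-0.43) and *Pou3f1* 32.9 and 43.7 RPKM (0.41). The 3 lower genes were *Sox4* (-1.59), *Sox3* (-0.85) and *Dnmt3a* (-0.71). After GC correction 5 were called higher and 1 lower, with a median of 0.44, against 18.6% and 18.1% of all genes. *Sox4* (-1.29) was the gene still lower, while *Sox3* (0.20) and *Dnmt3a* (-0.35) lay within 1.5-fold. *Pou3f1* (1.40) was among the higher genes. *T* (brachyury), a mesoderm factor of the T-box family, had 6 reads (shLuc) and 47 reads (shKdm5b) and stayed below 1 RPKM in both.

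Of 14 PRDM genes other than *Prdm14*, 6 passed it. *Prdm15* (-0.72) and *Prdm1* (-0.59) were called lower and 0 were higher, and after GC correction (-0.48 and -0.55) neither was. *Prdm1* encodes BLIMP1, which acts with PRDM14 in germ cell specification. Of 5 genes related to *Tfcp2l1*, *Grhl2* (20.8 and 6.93 RPKM, log2 ratio -1.57) and *Tfcp2* were lower and *Grhl3* (0.81) was higher. After GC correction *Grhl2* (-1.35) was lower, and *Grhl3* (1.16) and *Ubp1* (0.66) were higher.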
